A study of Mus musculus with 12 samples.

Results

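The genes described here encode the parts of the mitochondrial respiratory chain that are written in nuclear DNA. They were chosen by symbol alone, as the Nduf, Sdha to Sdhd, Uqcr, Cox4 to Cox8 and Atp5 genes of the count table. This gave 94 symbols, of which 2 pseudogene symbols ending in -ps were left out, so 92 of the 35976 genes in the table were members. Among them were 36 subunits and 8 assembly factors of complex I, 4 genes of complex II, 8 of complex III, 20 of complex IV and 16 of complex V. The symbols Ndufa4 and Ndufa4l2 were placed with complex IV and Atp5sl with the complex I assembly factors, since those are the places where their proteins are now known to act. All 92 members had a position in the RefSeq annotation of GRCm38.p6 (mm10), 89 by symbol and 3 by an older name.

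Polyadenylated RNA was sequenced from bone marrow cells of C57BL/6 mice, sorted for CD45.2, a form of the leukocyte protein CD45 often used to tell transplanted from host cells. The 12 libraries formed 4 groups of 3. WT was marrow without a fusion gene, BN1 carried BRD9-NUTM1, MA9 carried MLL-AF9 and ME carried MLL-ENL. The labels give no promoter, vector, age, treatment or time for any group, nor whether its 3 libraries stem from different mice. The p-values therefore rest on the spread between these libraries alone, which may be technical.

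Complex I (NADH dehydrogenase) and complex II (succinate dehydrogenase) pass electrons to coenzyme Q, complex III hands them to cytochrome c, and complex IV (cytochrome c oxidase) passes them to oxygen. Complexes I, III and IV pump protons, and complex V (ATP synthase) uses the proton gradient to make ATP. The enzymes are built from nuclear and mitochondrial gene products together, except complex II, which is wholly nuclear. In bone marrow, proliferating progenitors and blasts are known for more mitochondrial respiration than mature neutrophils, which rely largely on glycolysis.

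Library totals ran from 18292636 to 25732049 counts. Levels are in CPM (count divided by the TMM-scaled library size), as mean ± SD over 3 libraries. Fold changes are edgeR quasi-likelihood estimates on the log2 scale ± an approximate SE, and a gene was called higher or lower at a Benjamini-Hochberg adjusted p under 0.05 over 15334 genes tested. The sorted cells differed in makeup between groups. The 10 erythroid markers summed to between 33600 and 43600 CPM in WT libraries and between 3.39 and 33.1 CPM in leukemia libraries, with Car1 at 0 counts in each leukemia group. The 10 mature neutrophil markers summed to 56600 to 59700 CPM in WT, 4380 to 4630 for BN1, 533 to 574 for MA9 and 278 to 326 for ME. Each of the 8 B cell markers was called lower in each leukemia (summed 1060 to 1200 CPM in WT and 1.33 to 19.3 in leukemia libraries), as were 7 of 7 T and NK cell markers in MA9 and ME and 6 of 7 for BN1, where Nkg7 was called higher. Blast markers and CD45 (Kit, Mpo, Elane and Ptprc) summed to 2160 to 2320 CPM in WT and 7410 to 18200 in leukemias. Of these 4 genes, 3 were called higher and 1 lower in each leukemia. ME replicate 3 stood apart, with 14800 CPM of LOC101056014 against 455 and 446 in the other ME libraries, and 3510 CPM of Lars2 against 136 and 140. In such bulk samples, fewer cells of a type and less RNA per cell cannot be told apart.

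Summed, the respiratory chain genes were higher in each leukemia than in normal marrow. They summed to 6595 ± 243 CPM in WT, 8557 ± 121 for BN1, 8704 ± 125 for MA9 and 8584 ± 251 for ME (SD, n = 3). No leukemia library fell below the highest WT library, which reached 6787 CPM, and the 3 leukemia groups overlapped one another. Complex I subunits summed to 1705 ± 58.7 CPM in WT, 2089 ± 22.4 for BN1, 2132 ± 32.4 for MA9 and 2203 ± 72.4 for ME, and the BN1 libraries (2068 to 2113) overlapped those of MA9 (2095 to 2155). Complex IV went from 1277 ± 70.2 CPM in WT to 1966 ± 48.4 for BN1, a ratio of 1.54, beside 1.3 for MA9 (1655 ± 25.8) and 1.28 for ME (1635 ± 57.4). The lowest BN1 library, at 1926 CPM, lay above the highest of the MLL libraries, at 1694. Most of this gap came from 1 gene, Cox4i1. Without it, a sum made after the values were seen, complex IV stood at 1377 ± 30.7 CPM for BN1 (lowest 1347), 1316 ± 23.3 for MA9 and 1277 ± 55.3 for ME (highest 1336), and the ratio of BN1 to MA9 went from 1.19 to 1.05. For complexes II, III and V the order was the other way. Complex V summed to 2473 ± 74.4 CPM in WT, 3135 ± 44.2 for BN1, 3409 ± 54.3 for MA9 and 3237 ± 80.1 for ME. Complex III stood at 617.1 ± 30 CPM in WT, 735.9 ± 6.92 for BN1, 824.5 ± 15.9 for MA9 and 835.5 ± 25.4 for ME, and the BN1 libraries lay between the other groups without overlap. Complex II was at 1.22 times WT in BN1 and at 1.33 and 1.34 times in MA9 and ME. No test was made on these sums.

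**Figure D1:**
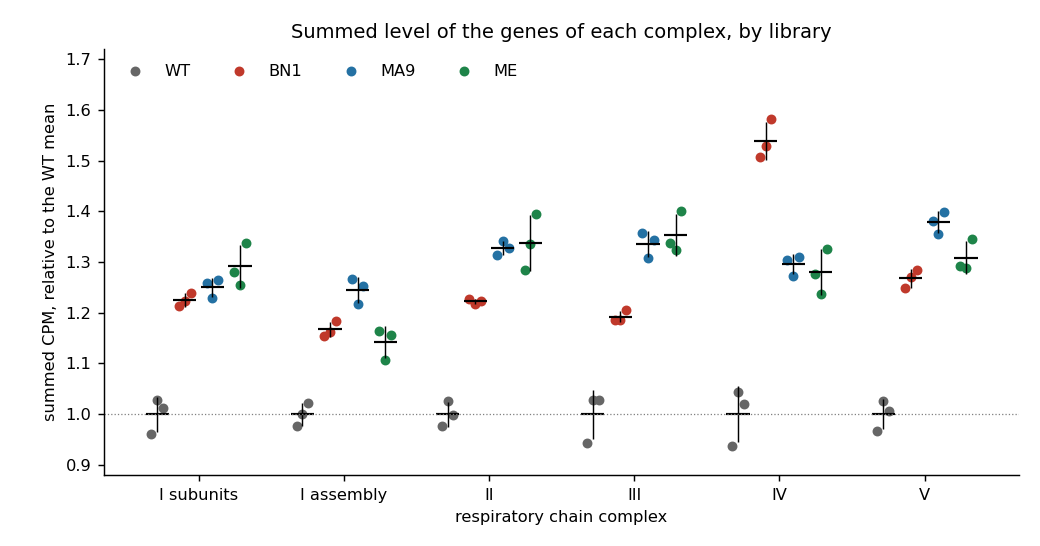
Summed CPM of the genes of each complex in every library, divided by the WT mean; points are libraries, black bars the mean and SD of 3. All leukemia points lie above the WT points, and the BN1 points for complex IV (mean 1.54) lie above those of MA9 and ME, a gap that comes mostly from Cox4i1.

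In BN1 against WT, 66 of the 87 members tested were called higher and 6 lower. Over all genes tested, 38.4% were called higher and 40.8% lower, so the share of members called higher (75.9%) was about 2 times the background. With a minimum fold of 1.2 the count in BN1 was 35 (40.2%, background 30.4%), beside 54 for MA9 (62.1%, background 32%) and 50 for ME (57.5%, background 31.2%). Their median log2 fold change was 0.30, against -0.01 for all genes. In MA9 against WT, 65 members were higher and 5 lower (background 39.3% and 40.8%), with a median of 0.42 against -0.01. ME against WT gave 69 higher and 5 lower (background 39% and 40.2%), with a median of 0.44 against -0.01. The 3 comparisons share the WT libraries. Most rises were small. The members at least 2-fold higher and called numbered 9 for BN1, 8 for MA9 and 3 for ME, which is below the background of 13.6%, 14.9% and 13.9%. Genes as strongly expressed as most members were somewhat more often higher than the whole table: of 9463 genes with at least 10 CPM, 46.2%, 46.8% and 47.3% were called higher in the same order. Short transcripts also leaned upward, with a median of 0.18, 0.29 and 0.30 for 715 other genes under 1000 bases, beside 0.31, 0.42 and 0.46 for the 50 members of that length and 0.29, 0.45 and 0.42 for the 37 longer members. The part of the differing cell makeup in these rises was not tested.

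**Figure D2:**
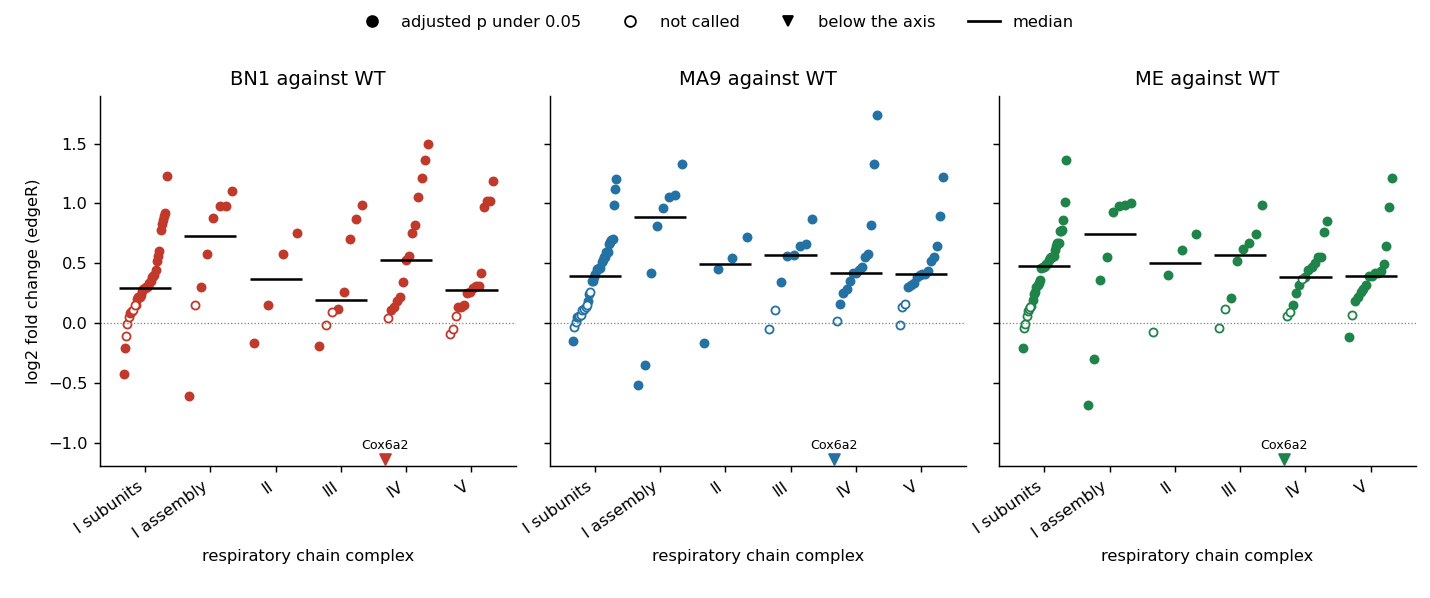
Log2 fold change of each member tested, in each leukemia against WT, by complex; filled points passed an adjusted p of 0.05, open points did not, and black bars are medians. Most points lie above 0 in every complex; triangles mark Cox6a2, which lies below the axis.

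Complex I subunits numbered 36, of which 26 (BN1), 24 (MA9) and 29 (ME) were called higher and 2, 1 and 1 lower. The background was 38.4%, 39.3% and 39% higher and 40.8%, 40.8% and 40.2% lower. Ndufb2, an accessory subunit of the membrane arm, had 17.2, 16 and 17.5 CPM in the WT libraries, 30.8, 29.4 and 31.5 for BN1, 37.7, 35.3 and 43.1 for MA9 and 44.2, 39.6 and 46.7 for ME. Its WT libraries lay below all others without overlap. The log2 fold change over WT was 0.86 ± 0.08 for BN1 (adjusted p = 4.1e-10). In MA9 its mean was 2.29 times that of WT (adjusted p = 3e-13), and the log2 fold change was 1.36 ± 0.08 for ME (adjusted p = 1.5e-14). Ndufa12, which replaces an assembly factor on the NADH-binding arm late in assembly, followed a like course, from 15.4 ± 1.07 CPM in WT to 26.3 ± 0.421, 33.3 ± 1.18 and 31 ± 2.8. Ndufb5 rose from 40.9 ± 3.38 CPM to 75.7 ± 5.09 for BN1, 81 ± 5.7 for MA9 and 63.6 ± 4.06 for ME. Of the subunits with redox centres, Ndufs1, which holds several iron-sulfur clusters, had 72.9 ± 1.28 CPM in WT and was called lower in ME alone of the 3 comparisons with WT (63 ± 1.68 CPM, log2 fold change -0.21 ± 0.06, adjusted p = 0.0015). Ndufv1, which binds NADH and flavin, rose in BN1 (0.29 ± 0.05) and, by edgeR but not DESeq2, in ME (0.14 ± 0.05), and stood at 0.07 ± 0.05 for MA9 (adjusted p = 0.19). Ndufb7 was called in none of the 6 comparisons, with group means of 82.1, 85, 82.6 and 87.7 CPM in WT, BN1, MA9 and ME.

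The complex I assembly factors, which build the enzyme but leave it, held both the strongest class medians and steady exceptions. Of 8, 6 were higher in each leukemia (background 38.4%, 39.3% and 39%), and 1, 2 and 2 were lower (background 40.8%, 40.8% and 40.2%). The medians of the 8 were 0.73, 0.89 and 0.74. Their summed level rose less, from 118.6 CPM in WT to 138.5 for BN1, 147.7 for MA9 and 135.5 for ME. At 1.17 times WT in BN1 and 1.14 times in ME, this was the smallest summed rise of any class in those 2 leukemias. Ndufaf4, which acts early in assembly, had 10.9, 11.7 and 10.7 CPM in WT, 20.7, 21 and 19.5 for BN1, 27.6, 29.3 and 26.2 for MA9 and 22.2, 21.6 and 22.5 for ME. The 4 groups did not overlap one another. It rose by 1.33 ± 0.09 for MA9 (adjusted p = 5.5e-14) and to 2 times the WT mean in ME (adjusted p = 3.9e-11). Ndufaf6 (3.61 ± 0.99 CPM in WT and 7.19 to 7.79 in leukemia means) and Ndufaf5 (4.89 in WT, 9.62 to 10.2 in leukemia means) rose about 2-fold in all 3. Atp5sl, now called Dmac2 and named for the membrane arm that it helps to assemble, fell from 45.6 ± 3.45 CPM in WT to 29.9 ± 2.47, 31.9 ± 2.69 and 28.2 ± 1.7, with log2 fold changes of -0.61, -0.52 and -0.69. Ndufaf7, a methyltransferase needed for assembly, was called lower in MA9 (-0.35 ± 0.08) and ME (-0.30 ± 0.08) and stood at 0.15 ± 0.08 for BN1 (adjusted p = 0.089).

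In complex II the membrane anchors rose and the catalytic pair did not rise together. Sdhc went from 54.5, 58.4 and 54.4 CPM in WT to 92.6, 93.8 and 94.8 for BN1, 94.9, 88.7 and 91.7 for MA9 and 90.8, 90.4 and 98.1 for ME. The leukemias lay well above WT and on top of one another, and the log2 fold changes were 0.75, 0.72 and 0.74, each ± 0.05. Sdhd behaved alike, from 81.7 ± 2.54 CPM to 122 ± 0.822, 118 ± 3.96 and 125 ± 7.34. Sdha, the flavoprotein, rose from 186 ± 0.617 CPM to 206 ± 2.59 for BN1 and further to 254 ± 5.5 for MA9 and 246 ± 10.9 for ME. Sdhb, the iron-sulfur subunit that binds to Sdha, was called slightly lower in BN1 (79.1 ± 5.99 to 70.1 ± 4.86 CPM, -0.17 ± 0.06, adjusted p = 0.012) and MA9 (-0.17 ± 0.06, adjusted p = 0.014), with overlapping libraries, and stood at -0.08 ± 0.06 for ME (adjusted p = 0.26). With library size only as scaling the BN1 and MA9 calls of Sdhb were lost.

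In complex III, 4 of 5 small accessory subunits were higher than WT in each leukemia (background 38.4%, 39.3% and 39%). Against MA9 and against ME, 3 of the 5 were higher in BN1 and 2 lower. The background was 32.8% higher and 34.9% lower against MA9, and 31.8% and 33% against ME. The lower ones were Uqcr10 (-0.48 ± 0.06 against MA9 and -0.43 ± 0.06 against ME) and Uqcrb (-0.17 ± 0.07 and -0.29 ± 0.07). Uqcr11 had 27.3, 34.6 and 34 CPM in WT, 62.2, 61.1 and 66.9 for BN1, 49.7, 45.4 and 56 for MA9 and 53.3, 50.6 and 48.2 for ME. Its WT libraries were lowest and its BN1 libraries highest, without overlap. Uqcrc1, a core protein, had 162, 180 and 179 CPM in WT, 194, 181 and 193 for BN1, 258, 253 and 259 for MA9 and 258, 267 and 277 for ME. BN1 lay just above WT and far below the MLL leukemias (BN1 against MA9 -0.44 ± 0.05, adjusted p = 4.2e-09). The core protein Uqcrc2 and the Rieske iron-sulfur protein Uqcrfs1 were also lower in BN1 than in MA9 (-0.35 ± 0.05 and -0.30 ± 0.06) and in ME (-0.22 ± 0.05 and -0.31 ± 0.06). So all 3 genes of this group were lower in both comparisons, which share the BN1 libraries, as were 25.8% of all genes tested. Uqcrfs1 was below WT in BN1 too (80.1 ± 3.2 against 91.6 ± 7.26 CPM, -0.19 ± 0.06, adjusted p = 0.0031), with overlapping libraries, a call lost with library size only.

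Complex IV held the member with the highest fold in BN1, Cox7b, and Cox4i1 rose beside it. Cox4i1, the usual isoform of a regulatory subunit (chr8:120668225-120674209), had 239, 258 and 264 CPM in WT, 579, 576 and 611 for BN1, 341, 336 and 341 for MA9 and 364, 352 and 358 for ME. The BN1 libraries stood far above the MLL libraries, and these above WT. The log2 fold change was 1.21 ± 0.04 against WT (adjusted p = 1.1e-19), 0.79 ± 0.04 against MA9 (adjusted p = 3.3e-15) and 0.72 ± 0.04 against ME (adjusted p = 3.6e-14). Cox7b, a small structural subunit on the X chromosome (chrX:106015700-106022450), rose from 49.5, 50.1 and 48.6 CPM in WT to 138, 143 and 140 for BN1, 86.2, 92 and 84.1 for MA9 and 85.7, 82.9 and 99.2 for ME, again with BN1 apart from both MLL leukemias and WT lowest. Its mean was 2.84 times that of WT in BN1, 1.77 times in MA9 and 1.81 times in ME (adjusted p at most 8e-13 in each). Cox5a, a nuclear subunit on the matrix side, ran from 84.5 ± 5.02 CPM in WT to 149 ± 6.04 for BN1, 126 ± 7.07 for MA9 and 105 ± 6.16 for ME, with each step called. Cox6b1, at the face that meets cytochrome c, rose from 93.2 ± 5.95 CPM to 157 ± 10.9, 125 ± 3.96 and 137 ± 7.13. Cox7a2l, a factor that joins complexes III and IV and is shortened in C57BL/6 mice, was called in no comparison, with means between 148 and 158 CPM.

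Complex IV also has tissue isoforms. Cox6a2, the heart and muscle isoform, had 10.1, 12.6 and 11.1 CPM in WT and at most 0.352 CPM in any leukemia library. Over the group, 626 counts in WT stood against 1 count in BN1 and 1 for ME, which is 812-fold lower in BN1 (95% interval 145 to 32100) and 679-fold lower in ME (121 to 26900), counting error only. In MA9 it fell by 5.54 ± 0.28 on the log2 scale (adjusted p = 2.1e-16). Its partner Cox6a1 lay between 123 and 148 CPM in all libraries. Plasmacytoid dendritic cell markers were set beside Cox6a2, a list added after its values were seen because these cells are known to express it. These markers were lower in 8 of 8 cases in each leukemia (background 40.8%, 40.8% and 40.2%). Their summed level was 740 to 789 CPM in WT, 367 to 402 for BN1, 332 to 360 for MA9 and 288 to 305 for ME, and their defining gene Siglech went from 110 CPM to 0.0278, 0.158 and 0.0161. The part of such cells in the loss of Cox6a2 was not tested.

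The testis isoform Cox6b2 (chr7:4751792-4753094) went the other way. It had 9.61, 14.8 and 12 CPM in WT, 24.8, 24.6 and 25.4 for BN1, 39.1, 41.8 and 40 for MA9 and 20.9, 20.8 and 19.7 for ME. The 4 groups did not overlap, and MA9 was highest. The rise over WT was 1.74 ± 0.10 for MA9 (adjusted p = 1.9e-15), 1.05 ± 0.10 for BN1 and 0.76 ± 0.10 for ME. Cox7a1, the muscle isoform of another subunit, rose from 0.585 ± 0.0997 CPM to 1.53 ± 0.276 for BN1 and 1.48 ± 0.143 for MA9, and stood at 0.779 ± 0.336 for ME (adjusted p = 0.38). Cox4i2, the lung isoform, had group means of 0.127 to 0.462 CPM, and with Cox7b2, Cox8b, Cox8c and Ndufa4l2, at or near 0, it made up the 5 members that the filter on low counts left out.

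**Figure D3:**
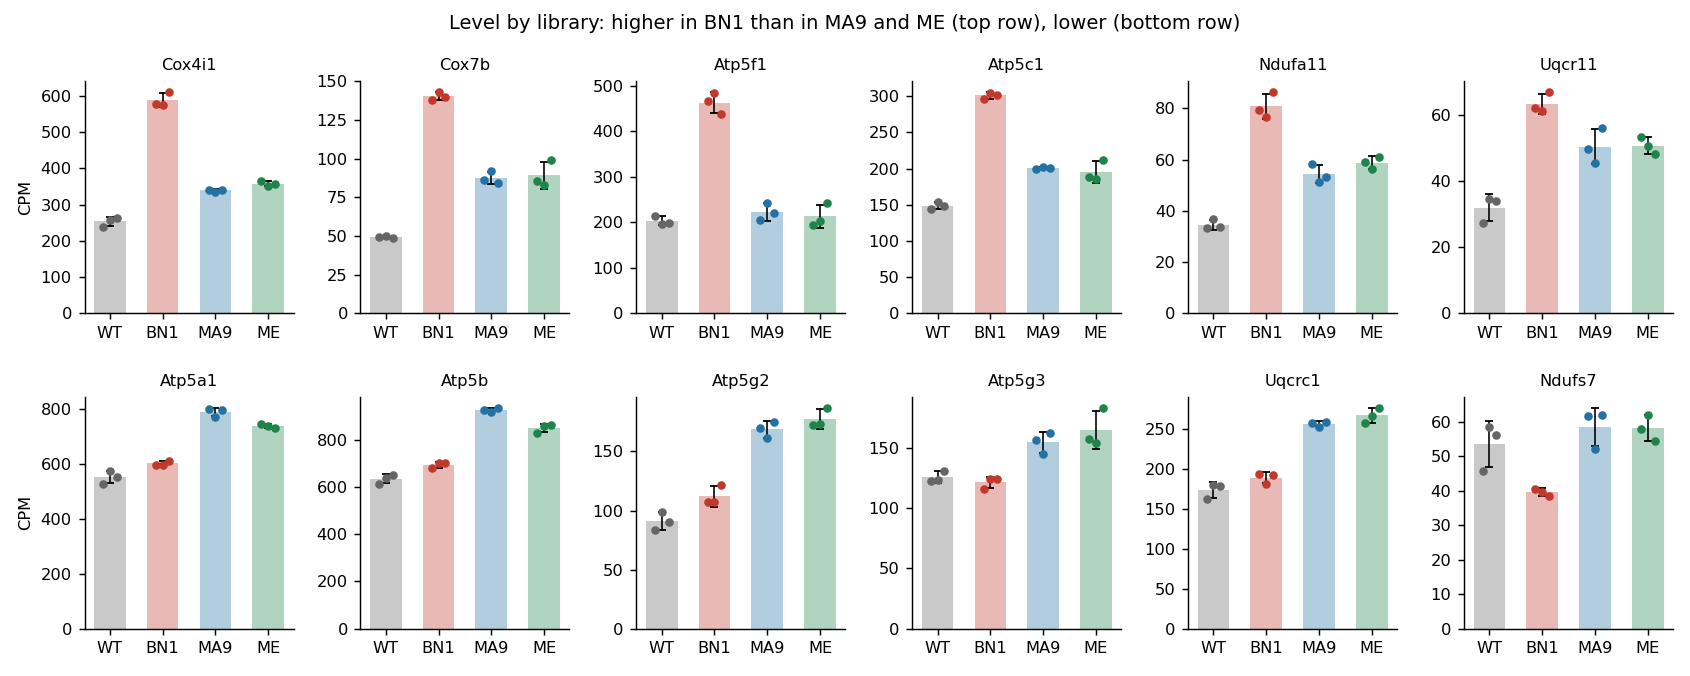
CPM of 12 members in every library; bars are group means starting at 0, points are libraries and error bars are SD of 3. In the top row BN1 stands above MA9 and ME, as for Cox4i1 (589 against 339 and 358), and in the bottom row below them, as for Atp5b (693 against 926 and 849).

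Between BN1 and the MLL leukemias the members did not move as a block. Against MA9, 21 of 87 were called higher in BN1 and 39 lower, where 32.8% and 34.9% of all genes tested were, with a median of -0.09. Against ME, 24 were higher and 35 lower (background 31.8% and 33%), with a median of -0.05. Complex I subunits were more often lower than higher in BN1 (9 higher and 16 lower against MA9, 8 and 18 against ME), and so were those of complex V (3 and 10 against MA9, 4 and 8 against ME), whereas complex IV had 5 and 5 against MA9 and 7 and 2 against ME. In the part of complex I where coenzyme Q is reduced, 4 of 5 genes were lower in BN1 in either comparison. Ndufs7, which holds the last iron-sulfur cluster before coenzyme Q, had 45.8, 58.4 and 56.1 CPM in WT, 40.6, 39.6 and 38.4 for BN1, 61.5, 52 and 61.8 for MA9 and 57.9, 62 and 54.5 for ME. BN1 was below every other group without overlap, at -0.43 ± 0.08 against WT (adjusted p = 3.4e-05) and -0.56 ± 0.08 against both MA9 (adjusted p = 9.9e-07) and ME (adjusted p = 1.3e-06). Ndufa5 of the same part stood at 16.5 ± 0.871 CPM in BN1, 24.1 ± 1.44 for MA9 and 25.4 ± 1.41 for ME. Ndufa11, a membrane arm subunit (chr17:56717762-56724248), was higher in BN1, with 33.1, 36.6 and 33.5 CPM in WT, 79.3, 76.7 and 86.3 for BN1, 58.1, 51.2 and 53.3 for MA9 and 59.2, 56.2 and 61 for ME, and BN1 above all the rest.

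ATP synthase divided within its own machine. The catalytic pair Atp5a1 and Atp5b, the alpha and beta subunits that make ATP, were lower in BN1 than in the MLL leukemias. Atp5b had 614, 636 and 652 CPM in WT, 680, 701 and 699 for BN1, 926, 918 and 935 for MA9 and 828, 859 and 860 for ME, with no overlap between groups (BN1 against MA9 -0.42 ± 0.04, adjusted p = 6.2e-10, and against ME -0.29 ± 0.04, adjusted p = 4.7e-07). Atp5a1 was at 552 ± 23, 603 ± 8.48, 789 ± 15.2 and 738 ± 6.5 CPM in the same order. The delta and epsilon subunits Atp5d and Atp5e were lower too. So 4 of 5 genes of the catalytic head and central stalk were lower in BN1 against MA9 and against ME (background 34.9% and 33%). The exception was the gamma subunit Atp5c1, the shaft that turns inside the head (chr2:10056030-10080510). It had 144, 154 and 148 CPM in WT, 296, 305 and 302 for BN1, 200, 202 and 201 for MA9 and 188, 185 and 212 for ME, and BN1 stood about 100 CPM above the other leukemias. The log2 fold change was 1.02 ± 0.05 against WT, 0.58 ± 0.05 against MA9 and 0.63 ± 0.05 against ME.

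Subunit b of the peripheral stalk, Atp5f1 (chr3:105942698-105959263), holds the head still while the shaft turns. It had 214, 196 and 199 CPM in WT, 467, 483 and 438 for BN1, 205, 243 and 219 for MA9 and 194, 202 and 242 for ME. The BN1 mean was about 2 times that of each other group, and the libraries of the others overlapped. The log2 fold change was 1.19 ± 0.07 against WT (adjusted p = 2.8e-11), 1.06 ± 0.07 against MA9 (adjusted p = 2.6e-10) and 1.12 ± 0.07 against ME (adjusted p = 1.3e-10), beside 0.13 ± 0.07 (adjusted p = 0.11) and 0.07 ± 0.07 (adjusted p = 0.41) for MA9 and ME against WT. Of the other stalk genes, Atp5h stood at 0.08 ± 0.05 against MA9 (adjusted p = 0.15) and was higher in BN1 than in ME, by 0.18 ± 0.05 (adjusted p = 0.0013). Atp5j was lower than in MA9 (-0.16 ± 0.05) and at -0.01 ± 0.05 against ME (adjusted p = 0.83), and Atp5o was lower than in both (-0.26 ± 0.05 and -0.12 ± 0.05). Atp5s, the coupling protein called factor B, was higher in BN1 as well, at 11.5 ± 0.419 CPM against 5.64 ± 0.442 in WT, 6.3 ± 0.166 for MA9 and 7.61 ± 0.722 for ME.

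The ring of c subunits, which turns as protons pass, is encoded by 3 genes whose mature proteins are the same and whose import signals differ. Atp5g1 had 32.3, 36.9 and 36 CPM in WT, 71.6, 63.7 and 70 for BN1, 82.8, 78.8 and 83.8 for MA9 and 78.6, 78.3 and 85.7 for ME. It rose in each leukemia, by 0.97, 1.22 and 1.21, and BN1 lay between WT and the MLL leukemias. Atp5g2 had 83.7, 98.9 and 89.9 CPM in WT, 107, 107 and 122 for BN1, 170, 161 and 175 for MA9 and 172, 173 and 187 for ME, so that the difference of BN1 from MA9 was -0.59 ± 0.06 (adjusted p = 2e-09). Atp5g3 was at 125 ± 4.61 CPM in WT and 121 ± 4.97 for BN1 (-0.05 ± 0.06, adjusted p = 0.47), and higher at 154 ± 8.62 for MA9 and 165 ± 16 for ME. All 3 genes were lower in BN1 than in MA9 and ME, as were 25.8% of all genes tested. Reads that match several close copies may have been split or dropped in counting, which the sources do not describe, so the levels of such families are uncertain.

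**Figure D4:**
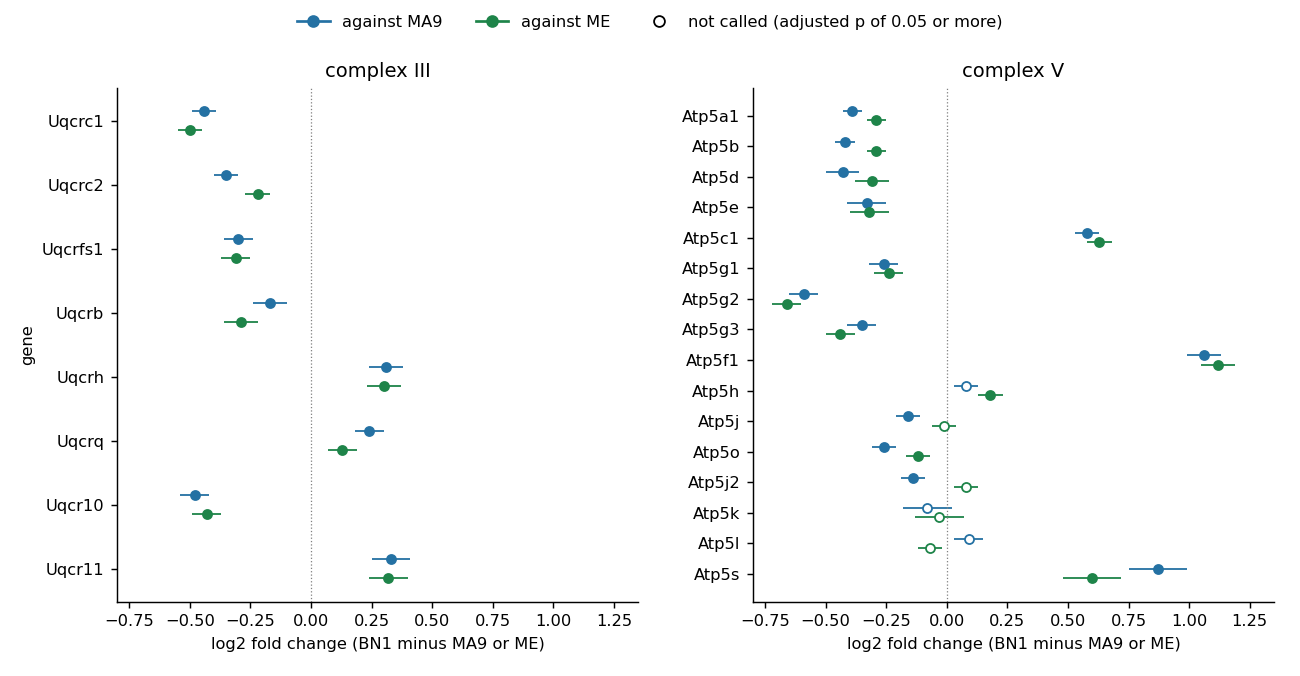
Log2 fold change ± SE of BN1 against MA9 (blue) and ME (green) for the genes of complexes III and V; open points were not called. Core and iron-sulfur genes of complex III and most head and ring genes of complex V lie below 0, while Atp5f1, Atp5c1 and Atp5s lie above it.

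MA9 and ME were closer to each other. Of 87 members, 12 were higher in MA9 and 7 lower (background 20.2% and 20.4%), and the median was -0.00. The split moved with the scaling, to 18 and 5 with upper-quartile factors and to 21 and 4 with library size only, and without ME replicate 3 it was 15 and 4. Cox6b2 and Cox5a were higher in MA9, by 0.98 ± 0.09 (adjusted p = 6.2e-10) and 0.26 ± 0.06 (adjusted p = 0.00039). Ndufb5 (0.35 ± 0.07) and the assembly factor Ndufaf4 (0.33 ± 0.08) were higher in MA9 as well. Ndufv3, an accessory subunit of the NADH-binding arm, was lower, with 62.2, 60.3 and 63.1 CPM in MA9 and 76.6, 77.9 and 78.2 for ME, above 45.3, 47.1 and 53.5 in WT and 51.3, 48.7 and 54.9 for BN1. MA9 and ME did not overlap (-0.33 ± 0.06, adjusted p = 6.5e-05).

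Respiratory chain promoters are known for sites of NRF1 and of the ETS factor GABP. Promoters from 250 bases before to 50 after the start were found for 76 members (82 promoters, RefSeq, GRCm38.p6) and searched on both strands. The NRF1 core, a palindrome printed in capitals with the sequences, was in 7 of 82 (8.54%), against 0.971% of all 32851 promoters of the table. The ETS motif CCGGAAG was in 20.7% against 8.86%, the NFY motif CCAAT in 42.7% against 37.4% and the E-box CACGTG in 11% against 7.15%. Among the 22087 promoters left without Gm, LOC and Mir symbols, the shares were nearer to those of members, at 1.32% for the NRF1 core, 11.5% for ETS, 38.1% for NFY and 8.11% for the E-box. These matches describe letters and not binding. The 7 genes with the NRF1 core did not share a course: Ndufa11 was higher in BN1 than in both MLL leukemias, Uqcrc1 and Atp5g2 were lower, and Atp5k, Cox6a1, Ndufaf4 and Ndufaf5 were not called in 1 direction against both. The stretches before the start of 3 of them are shown because they carry the core beside such different courses, in capitals with any other motif searched, read 5′ to 3′ on the gene's strand.
Atp5g2, minus strand of chr15:102671048-102671127, core 42 bases before the start: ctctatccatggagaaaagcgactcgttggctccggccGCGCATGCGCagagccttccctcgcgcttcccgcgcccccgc
Ndufaf4, plus strand of chr4:24897960-24898082, core 113 bases before the start: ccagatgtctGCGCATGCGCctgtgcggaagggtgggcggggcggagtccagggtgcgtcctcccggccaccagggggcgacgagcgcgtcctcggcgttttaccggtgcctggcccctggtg
Ndufa11, plus strand of chr17:56717700-56717761, core 60 bases before the start: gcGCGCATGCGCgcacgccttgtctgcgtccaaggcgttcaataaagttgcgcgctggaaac

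The Ndufa11 stretch is short because another gene, Vmac, starts 63 bases away in the other direction. Such head-to-head neighbours within 1000 bases were found for 19 members, and 17 of the neighbours were tested. The members called higher in BN1 against both MLL leukemias had 7 such neighbours. Of these, 5 were higher in BN1 than in both MLL leukemias, as were 25% of all genes tested. The 2 comparisons share the BN1 libraries. Kin, beside Atp5c1 and 1 of the 5, was not called in BN1 against WT (-0.18 ± 0.09, adjusted p = 0.069). It was lower than WT in MA9 (-0.88 ± 0.09) and ME (-0.92 ± 0.09). Tssk6, beside Ndufa13, was lower in BN1 than in both. Its level was low, at 3.64 CPM in WT and 3.19 for BN1, and not called between these (-0.18 ± 0.19, edgeR adjusted p = 0.38). It was higher than WT in MA9 (1.12 ± 0.17) and ME (1.04 ± 0.17). Lrrc41, beside Uqcrh, was lower in BN1 than in ME (-0.27 ± 0.09, adjusted p = 0.0072) and not called against MA9 (-0.11 ± 0.09). Wdr77, a partner of the arginine methyltransferase PRMT5 that starts 235 bases from Atp5f1, was at 49.7 ± 0.517 CPM in WT, 195 ± 9.31 for BN1, 58.6 ± 4.03 for MA9 and 59.7 ± 3.76 for ME (BN1 against MA9 1.73, adjusted p = 2e-20). Fam126b, 64 bases from Ndufb3, went from 18.8 CPM in WT to 65.4 for BN1, with 28.7 and 32.4 for MA9 and ME. Ndufb3 itself, a membrane arm subunit, was at 36.3 ± 1.67, 64.7 ± 2.27, 47.4 ± 3.07 and 50.9 ± 4.39 CPM. Rps28, a ribosomal protein gene 10 bases from Ndufa7, stood at 207, 592, 376 and 371 CPM in the order WT, BN1, MA9 and ME. By the starts used here, the genes of a pair run apart without overlap. Whether reads of genes this close were shared was not tested. The sources give neither the annotation nor the strand use of the counting. The 3 tested neighbours of members lower in BN1 than both MLL leukemias were called in neither comparison (edgeR, adjusted p of 0.074 to 0.49).

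The bases between the starts are shown for Atp5f1 with Wdr77 and Ndufb3 with Fam126b, pairs in which both genes were higher in BN1 than in both MLL leukemias. The same held for Ndufa7 with Rps28, Ndufa11 with Vmac and Atp5c1 with Kin. Between the starts, the stretch of Atp5f1 holds no NRF1, ETS, NFY or E-box letters, but it holds at 2 places a palindrome centred on CGCG, in capitals, a motif searched for after this sequence was seen. It was in 0.466% of all promoters and in 0.666% of those without Gm, LOC and Mir symbols. Of the 82 promoters of members, 3 held it, that of Atp5f1 and both of Ndufa7. Since the motif was taken from Atp5f1 itself, these shares cannot be set against each other as a test. In the stretch of Ndufb3 the capitals mark the NFY motif read on the other strand.
Atp5f1 to Wdr77, minus strand of chr3:105959264-105959497: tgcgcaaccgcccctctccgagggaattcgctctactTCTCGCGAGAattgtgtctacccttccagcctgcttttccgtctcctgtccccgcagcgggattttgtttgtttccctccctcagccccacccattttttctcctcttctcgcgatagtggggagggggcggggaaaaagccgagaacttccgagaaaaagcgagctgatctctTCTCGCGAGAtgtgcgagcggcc
Ndufb3 to Fam126b, plus strand of chr1:58586334-58586396: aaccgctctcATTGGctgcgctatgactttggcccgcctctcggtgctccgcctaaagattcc

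**Figure D5:**
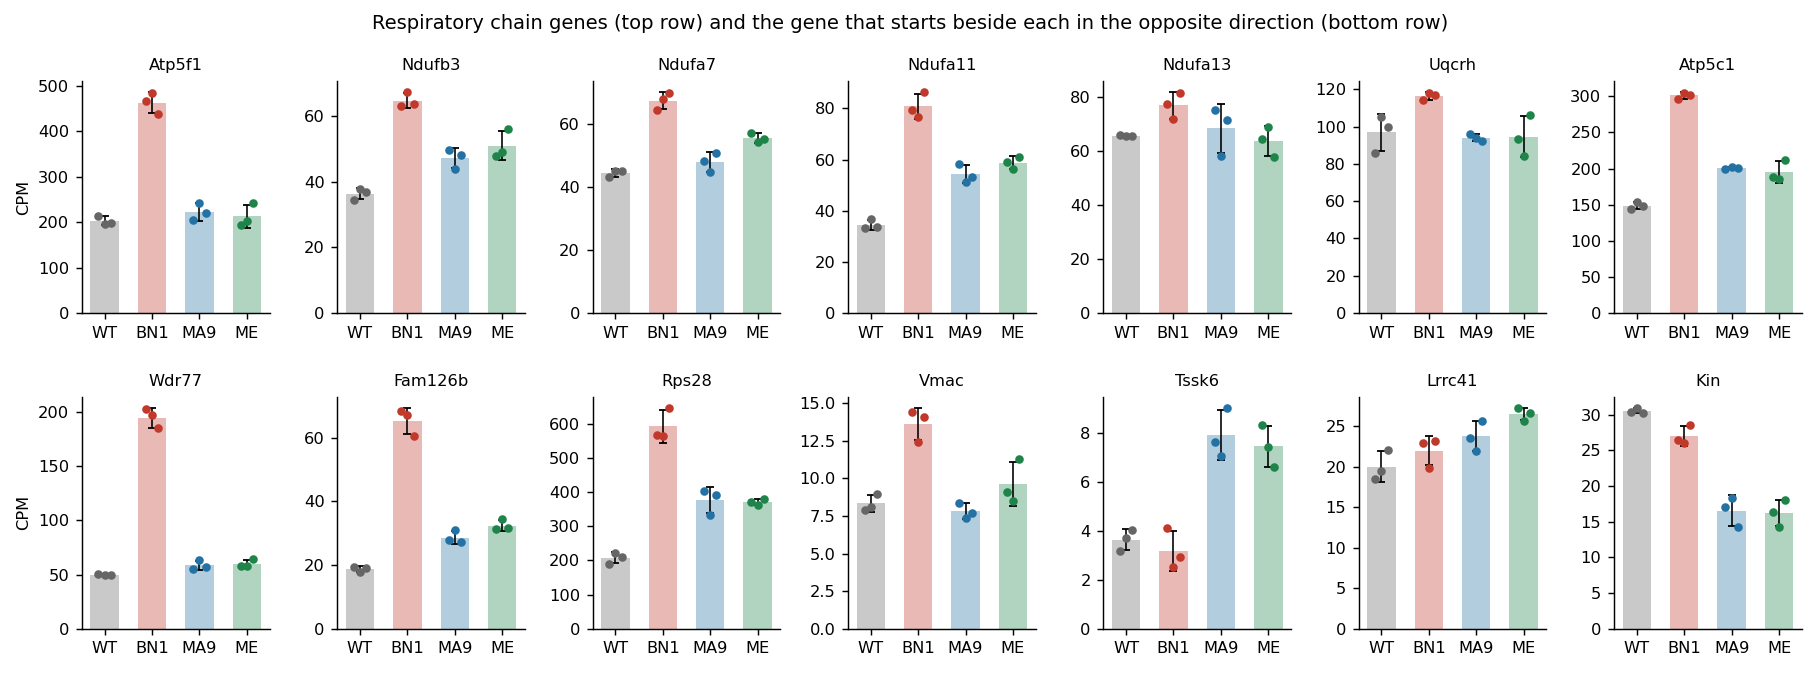
CPM by library of 7 members (top row) and of the gene that starts next to each in the opposite direction (bottom row); bars are group means starting at 0, points are libraries and error bars are SD of 3. Atp5f1 with Wdr77 and Ndufb3 with Fam126b are highest in BN1, while Tssk6 beside Ndufa13 is lower there than in MA9 and ME and overlaps WT.

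Genes that work with the chain were counted against the same background, 38.4%, 39.3% and 39% higher and 40.8%, 40.8% and 40.2% lower for BN1, MA9 and ME against WT. Of 15 import, chaperone and outer membrane genes, 11 (BN1), 14 (MA9) and 15 (ME) were higher and none lower. Of 17 tricarboxylic acid cycle genes, 13, 16 and 14 were higher and 1, 0 and 1 lower. Mdh2, which makes oxaloacetate and NADH, stood out at 217 ± 3.58 CPM in WT, 823 ± 36.3 for BN1, 260 ± 8.55 for MA9 and 251 ± 4.57 for ME. Of 40 other assembly factors tested, 30, 31 and 30 were higher and 3, 4 and 5 lower. Genes of cytochrome c, of coenzyme Q (Coq and Pdss genes) and of adenine nucleotide and phosphate exchange gave 10, 16 and 12 higher of 17 tested and 2, 1 and 2 lower. Cytochrome c itself (Cycs) was at 67.6 ± 5.86 CPM in WT, 107 ± 6.44 for BN1, 172 ± 11 for MA9 and 136 ± 9.07 for ME. The ADP/ATP carrier Slc25a4, at 51.5 ± 1.19, 186 ± 2.81, 107 ± 3.86 and 88.6 ± 2.83 CPM, was highest in BN1, whereas its relative Slc25a5, at 304 ± 3.8, 520 ± 16.1, 689 ± 13.2 and 605 ± 47.3, was highest in MA9.

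Of 13 subunits encoded in mitochondrial DNA, 2 were called higher in BN1, 2 in MA9 and 0 in ME (edgeR). These shares, 15.4%, 15.4% and 0%, were below the background of 38.4%, 39.3% and 39%. Called lower were 0, 0 and 1 (background 40.8%, 40.8% and 40.2%). The fold changes of the 13 subunits lay above 0 for 12, 13 and 7 genes, with medians of 0.23, 0.18 and 0.01. They were not tested against those of the nuclear genes. Of 18 genes that regulate respiratory genes or mitochondrial DNA, 9, 10 and 9 were higher (50%, 55.6% and 50%) and 5, 5 and 6 lower (27.8%, 27.8% and 33.3%), shares not far from the background. Nrf1, the factor whose motif was searched above, was lower in each leukemia, at 65.9 ± 3.31 CPM in WT, 47.6 ± 1.41 for BN1, 51.3 ± 3.31 for MA9 and 59.3 ± 3.24 for ME. The coactivator gene Ppargc1a was low throughout, with 0.882 ± 0.296 CPM in WT, 0.134 ± 0.083 for BN1, 4.39 ± 0.395 for MA9 and 1.54 ± 0.121 for ME. Ssbp1, which coats single-stranded mitochondrial DNA, was at 31 ± 2.95, 107 ± 5.44, 33.3 ± 2.6 and 36.4 ± 3.13 CPM, with BN1 far above the others.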

How the data were processed

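The authors deposited raw counts, whole numbers of reads per gene, for 35976 symbols in 12 libraries of mouse bone marrow cells, 4 groups of 3. Per the submitters' processing notes, reads were handled with HISAT2, featureCounts and DESeq2 on mm10. Not given in the sources used here: versions, annotation and strand use. Per the labels, RNA came from RNeasy columns and stranded TruSeq mRNA libraries. Totals ran from 18292636 to 25732049 counts. Relative to the level, counting error is larger for genes of a few CPM than for strongly expressed ones.

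The symbol rule that gave the members, and the gene lists, were set with earlier results of these data known. Counts were filtered with filterByExpr (15334 genes kept, 87 of 92 members), scaled by TMM (factors 0.928 to 1.051) and fitted in 1 robust quasi-likelihood model over all libraries with edgeR 4.0.16, with 8 residual degrees of freedom and a biological coefficient of variation of 5.87%. P-values were adjusted by Benjamini-Hochberg over all genes, and calls were made under 0.05. The SE is the log2 fold change divided by the square root of F. Group sums carry no test. Members were counted by complex. Those named were, in each class and direction, up to 3 called members with the largest change against WT and up to 2 between leukemias, given 5 CPM in the higher group and no overlap, plus fixed key subunits, c-ring genes and tissue isoforms. List genes were named up to 3 per direction against WT. Uqcrc2, Atp5k, Ndufb3, Ndufb7, Ndufa13, Atp5j, Slc25a5, Nrf1, Ppargc1a, the neighbours, the dendritic cell list and the palindrome were taken up after values were seen. Alternatives covered other tools (DESeq2 1.42.0, limma 3.58.1), scalings, filters and samples. The fit was tested on simulated data. No 2 libraries were duplicates. Software was R 4.3.3, pandas 2.3.3, numpy 2.4.6, matplotlib 3.10.9 and Python 3.11.15.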

Additional observations from a re-analysis of the deposited data

Results flagged for a closer look

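Ndufaf7 and Ndufs4 were picked out because BN1 and an MLL leukemia lay on opposite sides of WT without overlap of their libraries. Ndufaf7, a complex I assembly factor, had 23.3, 23.4 and 22 CPM in WT, 25.5, 24.8 and 25.9 in BN1, 19.8, 17.2 and 17.1 in MA9 and 18.2, 18.2 and 19.5 in ME. BN1 differed from MA9 by 0.50 (adjusted p = 5.2e-06) and from ME by 0.45 (adjusted p = 2.4e-05) on the log2 scale in edgeR, while the rise of BN1 over WT was 0.15 (adjusted p = 0.089). Ndufs4, a complex I subunit whose loss causes Leigh syndrome, had 43, 43.8 and 42.8 CPM in WT, 45.8, 47.7 and 46 in BN1 and 39.4, 41.2 and 36.5 in MA9. BN1 differed from MA9 by 0.25 (adjusted p = 0.00062), with 0.11 over WT in BN1 (adjusted p = 0.11) and -0.15 in MA9 (adjusted p = 0.033). With library size only as scaling, the last value became 0.03.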

How the results depend on the processing

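Counts of members called are given as higher and lower. A minimum fold of 1.2 left 35 and 3 in BN1, 54 and 2 in MA9 and 50 and 2 in ME against WT, 10 and 15 in BN1 against MA9, 9 and 10 in BN1 against ME, and 2 and 0 in MA9 against ME. With library size only, 3, 2 and 3 members were lower against WT (BN1, MA9, ME), beside 77, 81 and 77 higher, and MA9 against ME gave 21 and 4. That scaling moved the median of all genes against WT to 0.1063, 0.1573 and 0.09999 and that of members to 0.42, 0.60 and 0.55. Upper-quartile factors left 3 lower in MA9 against WT. DESeq2 gave 60, 62 and 66 higher against WT. Leaving out each library in turn gave 60 to 66 and 4 to 7 in BN1 against WT, 64 to 70 and 3 to 5 in MA9 against WT, 67 to 71 and 4 to 5 in ME against WT, 20 to 22 and 34 to 39 in BN1 against MA9, 22 to 24 and 32 to 36 in BN1 against ME, and 8 to 15 and 4 to 9 in MA9 against ME. The 3 lower in MA9 against WT arose without WT replicate 2 or MA9 replicate 1, and the 4 lower in MA9 against ME without ME replicate 1 or ME replicate 3; the cause was not tested. Without Cox4i1, an alternative chosen after seeing the data, the summed complex IV level of BN1 was 1.05 times that of MA9 in place of 1.19, and 1.08 times that of ME in place of 1.2. The medians of complex II and complex IV in BN1 against MA9, 0.01 each, turned negative with upper-quartile factors and with library size only. Of 354 called fold changes of members, 338 kept direction and call with DESeq2, 354 with limma-voom, 340 with RLE factors, 346 with upper-quartile factors, 341 with library size only and 192 under the minimum fold. The 2 that reversed, both in MA9 against WT with library size only, were Ndufs4 (-0.15 to 0.03) and Sdhb (-0.17 to 0.00).

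A replicate block for the number in the titles gave 65 and 6 in BN1 against WT, 65 and 5 in MA9, 69 and 5 in ME, 20 and 38 in BN1 against MA9, 23 and 35 in BN1 against ME, and 12 and 7 in MA9 against ME, with 349 of the 354 calls kept. Deviations of samples with the same number correlated at -0.0806 to 0.0625 and those with other numbers at -0.101 to 0.0943, so the numbers were not taken to pair the samples.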
